A study of Homo sapiens with 8 samples.

Results

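The let-7 guide arms and miR-98-5p were examined, listed as hsa-let-7a-5p, hsa-let-7b-5p, hsa-let-7c-5p, hsa-let-7d-5p, hsa-let-7e-5p, hsa-let-7f-5p, hsa-let-7g-5p, hsa-let-7i-5p and hsa-miR-98-5p, where hsa stands for human. They were chosen by name as the 5p arms of the let-7 and miR-98 hairpins, and 9 of 9 were listed among the 3112 miRNAs of the deposited count table, of which 1482 were known miRNAs and 1630 were predicted ones. Small RNA of 786O cells, a line derived from human clear cell renal cell carcinoma (ccRCC), was sequenced in 8 libraries. The NC group held 4 libraries of cells given a negative control plasmid, and the circSOD2-sh group held 4 libraries of cells given a plasmid for an shRNA against circSOD2, a circular RNA of the SOD2 gene. Per the labels, both plasmids were delivered by lipid transfection, RNA was taken 48 h later, and both groups were grown in the same medium, while the study's methods also describe lentiviral shRNA vectors. The comparison addresses which miRNAs differed in level when circSOD2 was targeted. CircSOD2 itself is not measured by small RNA libraries, so the knockdown was not checked here, and the shRNA was compared with 1 control plasmid. Nothing in the labels says that the 4 libraries of a group came from separate cultures, so the p-values measure the spread between these libraries, which may be technical.

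The let-7 family is among the most conserved families of animal miRNAs. Its members are cut by Drosha and Dicer from short hairpins, loaded into Argonaute, and guided to target transcripts mainly by the seed near their 5′ end. Known targets include transcripts of RAS, HMGA2 and LIN28, the family is generally regarded as restraining growth and favouring differentiation, and the RNA-binding protein LIN28 in turn blocks the maturation of many let-7 hairpins. Several hairpins lie in clusters with other miRNAs, and let-7a and let-7f are each made from more than 1 hairpin, so the mature sequence does not tell which locus a read came from.

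The mature sequences are shown because the members differ from each other by few bases, which bears on how reads can be assigned to them. They were taken from RefSeq (GRCh38.p14), which held 9 of 9 members, and run 5′ to 3′ with the seed, bases 2 to 8, in capitals.
let-7a-5p: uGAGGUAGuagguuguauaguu
let-7b-5p: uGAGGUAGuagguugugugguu
let-7c-5p: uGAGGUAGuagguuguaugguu
let-7d-5p: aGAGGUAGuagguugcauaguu
let-7e-5p: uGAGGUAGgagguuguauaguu
let-7f-5p: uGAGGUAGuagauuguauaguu
let-7g-5p: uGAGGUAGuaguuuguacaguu
let-7i-5p: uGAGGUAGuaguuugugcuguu
miR-98-5p: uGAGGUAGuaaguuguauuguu

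All 9 members were 22 bases long and had the seed GAGGUAG, which 11 of the 2370 human mature miRNAs in the RefSeq table held. With positions counted from 1 at the 5′ end and the base of let-7a-5p written first, let-7c-5p differed from let-7a-5p by A19G, let-7e-5p by U9G and let-7f-5p by G12A. let-7b-5p carried A17G and A19G, let-7d-5p carried U1A and U16C, let-7g-5p carried G12U and U18C, and miR-98-5p carried G11A and A19U. let-7i-5p was the most distant from let-7a-5p, with G12U, A17G, U18C and A19U. let-7d-5p was the only member that began with A. Of the 36 pairs of members, 4 differed by 1 base (let-7a with let-7c, let-7e and let-7f, and let-7b with let-7c), and the most distant pair, let-7d-5p and let-7i-5p, differed by 6. How reads with a mismatch were assigned is not given in the sources used here, so values of these close neighbours may share reads. The 2 other listed miRNAs with this seed, miR-4458 and miR-4500, had at most 2 counts in any library and were too low to test.

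The loci are given in GRCh38, the build named by the submitters, with positions from GENCODE 29. let-7a-1 (chromosome 9, 94175957 to 94176036, plus strand), let-7f-1 (94176347 to 94176433) and let-7d (94178834 to 94178920) lie in an intron of the lincRNA AL158152.2, with 310 and 2400 bases between neighbours. let-7a-2 (chromosome 11, 122146522 to 122146593, minus strand) lies in an intron of MIR100HG, 5635 bases from the miR-100 hairpin and 46677 from the miR-125b-1 hairpin. let-7c (chromosome 21, 16539828 to 16539911, plus strand) has the same kind of neighbours in an intron of MIR99AHG, with miR-99a 658 bases and miR-125b-2 50325 bases away. let-7e (chromosome 19, 51692786 to 51692864, plus strand) lies in an intron of the protein-coding gene SPACA6, between miR-99b at 104 bases and miR-125a at 389 bases. let-7a-3 and let-7b (chromosome 22, 46112749 to 46112822 and 46113686 to 46113768, plus strand) lie within exonic sequence of the lincRNA MIRLET7BHG. let-7f-2 and miR-98 (chromosome X, 53557192 to 53557274 and 53556223 to 53556341, minus strand) lie in an intron of the ubiquitin ligase gene HUWE1. let-7g (chromosome 3, 52268278 to 52268361, minus strand) lies in an intron of WDR82, and let-7i (chromosome 12, 62603686 to 62603769, plus strand) in an intron of the lincRNA AC048341.1.

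Total counts ran from 6386872 to 9245044 over the NC libraries and from 3743860 to 4208276 over the circSOD2-sh libraries. One predicted miRNA took 54.3 to 59.1% of all counts in the NC libraries and 0.0628 to 0.105% in the circSOD2-sh libraries, so the meaning of higher and lower depended on the scaling. Levels are given as normalized CPM, read counts scaled to the library size after the trimmed mean of M-values (TMM) scaling, which set the median log2 fold change of the 895 tested miRNAs (463 of them known) at -0.0021. Scaling by library totals moved that median to 0.96. By edgeR's quasi-likelihood test at a Benjamini-Hochberg adjusted p under 0.05, 65.7% of the tested miRNAs were called (32.4% lower and 33.3% higher in circSOD2-sh) and 60.3% had normalized CPM that did not overlap between groups. In circSOD2-sh replicate 2 the summed level of 5 neural markers was 5238 normalized CPM, and the other 3 libraries of that group held 476 to 494. Summed stromal markers (miR-143 and miR-145 arms) were 556 in NC replicate 4 and 227 in circSOD2-sh replicate 2, against 7.24 to 13.4 elsewhere. In the same order, summed erythroid markers were 170 and 58.6 against 21.6 to 42.3, and leukocyte markers 17.1 and 14.7 against 1.19 to 3.21. The 5 kidney tubule markers, mostly miR-200b-3p, summed to 4145 to 5063 normalized CPM in the NC libraries and, without overlap, to 3601 to 3970 in the circSOD2-sh libraries, and 3 of the 4 tested were called lower after TMM. NC replicate 4 held miR-192-5p, miR-194-5p and miR-200c-3p at 953, 92.4 and 32.6. NC replicates 1 to 3 held 335 to 361, 27.6 to 30.2 and 8.44 to 12.1, and miR-200b-3p showed no such rise. The circSOD2-sh libraries held 269 to 282, 20.7 to 29.1 and 3.74 to 7.02. The hypoxia-induced miR-210-3p stood at 19.95 to 27.0 in the NC libraries against 13.9 to 19.8. It was also called lower after TMM (log2 fold change -0.54, edgeR adjusted p = 0.015). Values with library totals are not given here for miR-210-3p or the kidney markers. The part of these markers in the members' values was not tested. The kidney marker miR-204-5p was not tested and went the other way, without overlap. It had 1, 0, 0 and 4 counts in NC replicates 1 to 4. In circSOD2-sh replicates 1 to 4 it had 9, 164, 7 and 7.

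After TMM scaling, 4 of the 9 members were called lower in circSOD2-sh (let-7a-5p, let-7b-5p, let-7e-5p and let-7i-5p), 1 was called higher (let-7d-5p) and 4 had no call (let-7c-5p, let-7f-5p, let-7g-5p and miR-98-5p). The 5 of 9 called stood beside 65.7% of all tested miRNAs, a share no higher than the background, and the same 5 members had levels that did not overlap between groups, beside 60.3% of all tested. The median log2 fold change of the members was -0.29 against -0.0021 for all tested miRNAs. Scaled by library totals, all 9 members were instead called higher, by 0.32 to 1.38 on the log2 scale, beside 68.5% of all tested miRNAs called higher. Changes were also taken relative to the median of all tested miRNAs in each of 28 processing settings. By that measure let-7a-5p, let-7b-5p, let-7e-5p, let-7g-5p and let-7i-5p were below 0 in 28 of 28 and let-7d-5p was above 0 in 28 of 28. Subtracting the median takes out most of what a scaling adds to every miRNA, so agreement between scalings was largely built in. All settings also reuse the same 8 libraries or part of them.

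**Figure D1:**
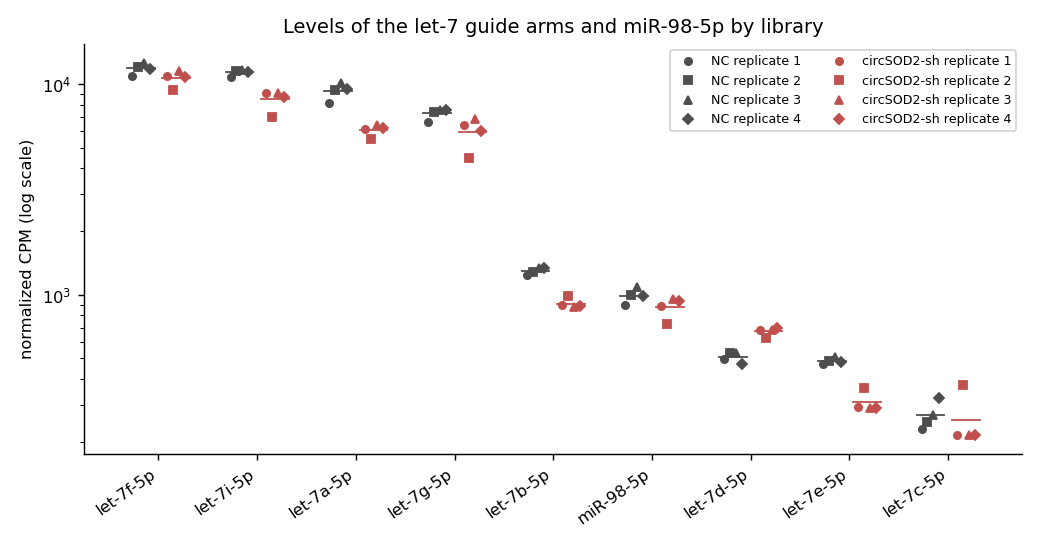
Normalized CPM (log axis) of the 9 members, ordered by their NC mean, in the 4 NC (grey) and 4 circSOD2-sh (red) libraries, with a marker shape for each replicate number and a line at the group mean. let-7d-5p had all 4 circSOD2-sh libraries above all 4 NC libraries, while let-7a-5p, let-7b-5p, let-7e-5p and let-7i-5p had them all below, and circSOD2-sh replicate 2 stood apart for let-7c-5p.

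hsa-let-7a-5p, the founding mature form with hairpins on chromosomes 9, 11 and 22, was measured at 8090, 9375, 10163 and 9497 normalized CPM in NC replicates 1 to 4 and at 6126, 5476, 6367 and 6207 in circSOD2-sh replicates 1 to 4. Every circSOD2-sh library was below every NC library. The mean went from 9281 ± 867 (SD, n = 4) to 6044 ± 392, a log2 fold change of -0.62 (SE 0.085, edgeR adjusted p = 0.000113) that became 0.35 with library totals.

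hsa-let-7e-5p, which differs from it by U9G, was at 472, 484, 505 and 479 normalized CPM in NC replicates 1 to 4 and at 294, 362, 292 and 289 in circSOD2-sh replicates 1 to 4. The groups did not overlap, although circSOD2-sh replicate 2 stood above the other 3. The log2 fold change was -0.65 (SE 0.094, edgeR adjusted p = 0.000175), and 0.32 with library totals. let-7e-5p thus had the lowest change of the 9 members, close to that of let-7a-5p. The rank was the same under both scalings, which shift all members nearly alike.

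hsa-let-7b-5p, whose hairpin is neighbour to let-7a-3, was at 1239, 1283, 1349 and 1335 normalized CPM in NC replicates 1 to 4 and at 892, 988, 871 and 885 in circSOD2-sh replicates 1 to 4. The groups did not overlap, and circSOD2-sh replicate 2 was again the highest of its group. The log2 fold change was -0.52 (SE 0.072, edgeR adjusted p = 0.000126), and 0.45 with library totals.

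hsa-let-7i-5p, from a lone hairpin on chromosome 12, was at 10777, 11562, 11682 and 11408 normalized CPM in NC replicates 1 to 4 and at 9107, 6967, 9100 and 8715 in circSOD2-sh replicates 1 to 4. The groups did not overlap, and here circSOD2-sh replicate 2 was the lowest library. The log2 fold change was -0.42 (SE 0.091, edgeR adjusted p = 0.00236), and 0.55 with library totals.

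hsa-let-7d-5p was the single member called higher. It was at 496, 528, 528 and 472 normalized CPM in NC replicates 1 to 4 and at 679, 627, 683 and 695 in circSOD2-sh replicates 1 to 4, so that every circSOD2-sh library was above every NC library. The mean went from 506 ± 27.3 (SD, n = 4) to 671 ± 30.1, a log2 fold change of 0.41 (SE 0.075, edgeR adjusted p = 0.000995), and 1.38 with library totals. Without circSOD2-sh replicate 3, which was neither the highest nor the lowest of its group, the log2 fold change was 0.25 (edgeR adjusted p = 0.0688). In that fit the median of all tested miRNAs was -0.10, and let-7d-5p was 0.35 above it, against 0.41 with all libraries. The call was kept without circSOD2-sh replicate 1 or 4, at 0.28 and 0.27 (edgeR adjusted p = 0.0335 and 0.0359). It was also kept without circSOD2-sh replicate 2, at 0.33 (edgeR adjusted p = 0.00415). Relative to the median of all tested miRNAs, let-7d-5p was 0.26 to 0.64 above it over the 28 settings.

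The 4 members with no call had levels that overlapped between groups. hsa-let-7f-5p, made from hairpins on chromosomes 9 and X, ranged over 10966 to 12645 normalized CPM (NC) and 9397 to 11520 (circSOD2-sh), with a log2 fold change of -0.16 (SE 0.078, edgeR adjusted p = 0.106). hsa-miR-98-5p, its neighbour on chromosome X, ranged over 899 to 1085 (NC) and 731 to 958 (circSOD2-sh), with a log2 fold change of -0.18 (SE 0.10, edgeR adjusted p = 0.152). hsa-let-7g-5p, from a lone hairpin on chromosome 3, was at 6615, 7335, 7532 and 7548 normalized CPM in NC replicates 1 to 4 and at 6416, 4470, 6831 and 6022 in circSOD2-sh replicates 1 to 4. The overlap of let-7g-5p came from NC replicate 1 and circSOD2-sh replicate 3. Its log2 fold change was -0.29 (SE 0.12, edgeR adjusted p = 0.0608). Which of them passed the threshold changed with single libraries left out. let-7f-5p and let-7g-5p were called lower when NC replicate 1 or any 1 of the 4 circSOD2-sh libraries was left out, and miR-98-5p when circSOD2-sh replicate 2, 3 or 4 was. Without circSOD2-sh replicate 3, for example, their log2 fold changes were -0.35, -0.51 and -0.37 (edgeR adjusted p = 0.0169, 0.0103 and 0.0296). Leaving out a circSOD2-sh library also raised the number of miRNAs tested from 895 to 969 or 970. It moved the median of all tested from -0.0021 to between -0.145 and -0.092. Relative to that median, the 3 changes without circSOD2-sh replicate 3 were -0.24, -0.41 and -0.27. With all libraries they were -0.15, -0.29 and -0.17.

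hsa-let-7c-5p, the least abundant member, was the one most affected by single libraries. It was at 230, 249, 268 and 326 normalized CPM in NC replicates 1 to 4 and at 217, 372, 216 and 216 in circSOD2-sh replicates 1 to 4. The other 3 circSOD2-sh libraries were below all NC libraries, whereas circSOD2-sh replicate 2 was 1.72 times their mean and above every NC library. With all 8 libraries the log2 fold change was -0.071 (SE 0.20, edgeR adjusted p = 0.761), and 0.89 with library totals. Without circSOD2-sh replicate 2 the fitted log2 fold change was -0.41 (edgeR adjusted p = 0.0113), and without both that library and NC replicate 4 it was -0.31 (edgeR adjusted p = 0.0162). Relative to the median of all tested miRNAs, these changes were -0.27 and -0.17, against -0.069 with all 8 libraries. circSOD2-sh replicate 2 and NC replicate 4 were the libraries with raised neural or stromal markers, and the part of those markers in let-7c-5p was not tested.

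Leaving out circSOD2-sh replicate 2, 3 or 4 raised the number of members called lower from 4 to 8, 7 and 7, and leaving out circSOD2-sh replicate 3 reduced the number called higher from 1 to 0. The number called lower also rose without NC replicate 1 or circSOD2-sh replicate 1, through let-7f-5p and let-7g-5p. In circSOD2-sh replicate 2, 3 members were above the other libraries of the group (let-7b-5p, let-7c-5p and let-7e-5p) and 6 were below them. NC replicate 4 was above the other NC libraries for let-7c-5p and let-7g-5p, below them for let-7d-5p and within them for 6 members.

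**Figure D2:**
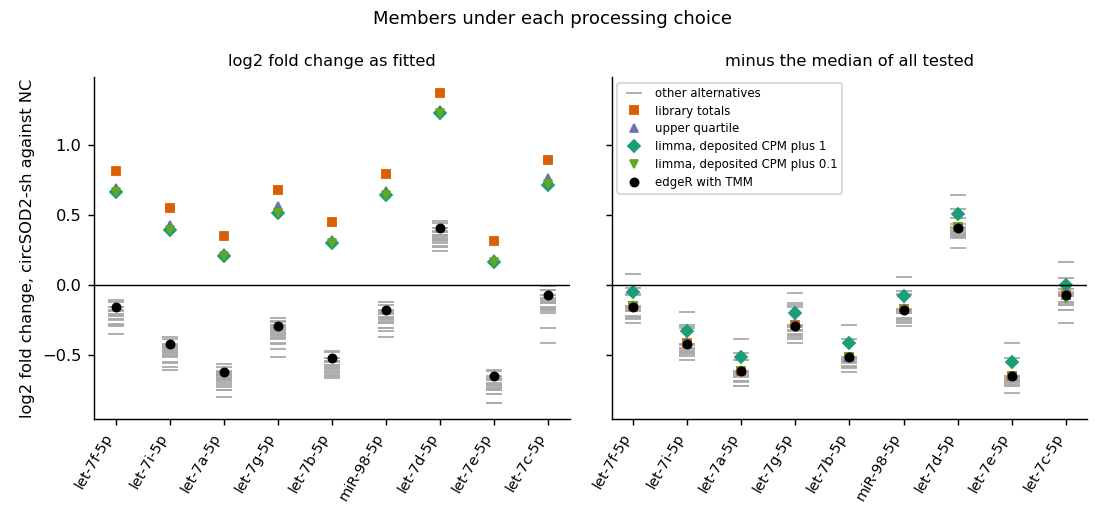
Log2 fold change (circSOD2-sh against NC) of each member under every processing choice, as fitted on the left and after the median of all tested miRNAs under the same choice was subtracted on the right. On the left, library totals, upper quartile scaling and limma on the deposited CPM put every member above 0 and edgeR with TMM puts 8 below it. On the right the choices fall together, largely because the subtraction takes out what a scaling adds to every miRNA, and let-7d-5p is highest.

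The order of the members by group mean was the same in both groups. It ran let-7f-5p, let-7i-5p, let-7a-5p, let-7g-5p, let-7b-5p, miR-98-5p, let-7d-5p, let-7e-5p and let-7c-5p. In NC the ranges of let-7f-5p and let-7i-5p overlapped, as did those of let-7d-5p and let-7e-5p, while the other neighbours were apart. In circSOD2-sh the overlapping neighbours were let-7a-5p with let-7g-5p, let-7b-5p with miR-98-5p, and let-7e-5p with let-7c-5p. let-7d-5p and let-7e-5p, at 506 and 485 normalized CPM in NC, were at 671 and 309 in circSOD2-sh and no longer met. All 9 mature sequences have the same length, so no length correction was needed for this order, though ligation bias between sequences was not measured. Among all known miRNAs let-7f-5p ranked 10 to 11 in NC and 12 to 15 in circSOD2-sh, let-7a-5p 13 to 15 and then 22 to 24, and let-7c-5p 82 to 94 and then 88 to 105.

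The summed level of the 9 members ranged from 39784 to 45757 normalized CPM over the NC libraries, against 29391 to 36839 over the circSOD2-sh libraries. The groups did not overlap, with means of 43318 ± 2519 (SD, n = 4) and 34129 ± 3272. The sum was 7.75 to 8.33% of all known miRNA counts in the NC libraries, against 4.10 to 5.53% in the circSOD2-sh libraries, and the order turned when all counts were the denominator, with 2.81 to 3.35% in NC and 3.96 to 5.26% in circSOD2-sh. miR-100-5p, a cluster partner of let-7a-2, alone took 3.34 to 3.69% of known counts in the NC libraries, against 17.3 to 20.6% in the circSOD2-sh libraries. With miR-100-5p left out of the denominator, the sum of the members was 8.30 ± 0.24% in NC and 6.15 ± 0.85% in circSOD2-sh. Without circSOD2-sh replicate 2, that group's share of known counts was 5.28 ± 0.23% (n = 3) rather than 4.98 ± 0.62%.

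The make-up of the sum does not depend on the scaling, because each share is a ratio within a library. let-7f-5p, let-7i-5p, let-7a-5p and let-7g-5p together held 89.5 to 91.9% of it in every library. let-7a-5p held 20.3, 21.4, 22.2 and 21.6% of the sum in NC and 17.3, 18.6, 17.3 and 17.8% in circSOD2-sh, a difference of -3.64 percentage points with no overlap. let-7f-5p went the other way, with 27.6, 27.4, 27.6 and 27.0% in NC and 30.7, 32.0, 31.3 and 31.1% in circSOD2-sh. A share rises when others fall, so a higher share need not be a higher level. After TMM let-7f-5p had no call (log2 fold change -0.16). let-7a-5p and let-7f-5p differ by the single base G12A and are cut from neighbouring hairpins on chromosome 9.

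let-7d-5p, the third hairpin of that locus, held 1.25, 1.205, 1.15 and 1.07% of the sum in NC and 1.91, 2.13, 1.85 and 1.999% in circSOD2-sh. Its mean share in circSOD2-sh was 1.69 times that in NC. miR-98-5p held 2.29 ± 0.055% in NC and 2.57 ± 0.096% in circSOD2-sh (SD, n = 4), also without overlap. The shares of the other 5 members overlapped between groups. They were 26.2 ± 0.66 and 24.8 ± 0.82% for let-7i-5p, 16.8 ± 0.31 and 17.3 ± 1.47% for let-7g-5p, and 3.01 ± 0.087 and 2.70 ± 0.45% for let-7b-5p. let-7e-5p (1.12 ± 0.044 and 0.921 ± 0.21%) and let-7c-5p (0.619 ± 0.083 and 0.772 ± 0.33%) overlapped through circSOD2-sh replicate 2, where they reached 1.23 and 1.27%. So 4 of 9 members had shares that did not overlap, beside 59.1% of the 886 other tested miRNAs when each was divided by the same sum. The 95% Wilson interval of any of these shares was at most 0.22 percentage points to either side, for counting error only.

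**Figure D3:**
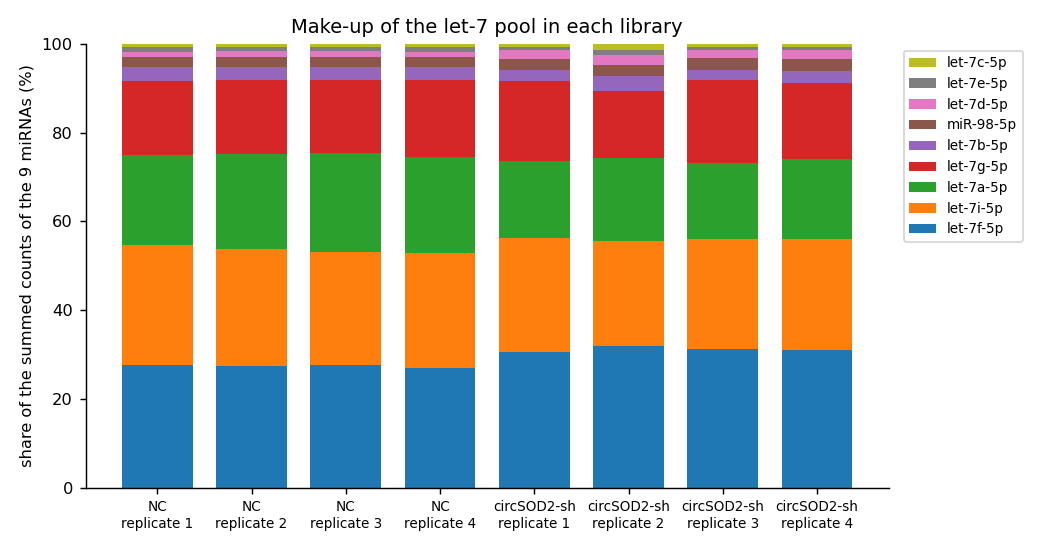
Share of the summed counts of the 9 members (percent, stacked to 100) that each member held in each of the 8 libraries. let-7f-5p took 27.0 to 27.6% in NC and 30.7 to 32.0% in circSOD2-sh, let-7a-5p took less in circSOD2-sh, and the band of let-7d-5p was wider there.

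Each member was then set against the miRNAs of its own hairpin cluster. The partners fall into the miR-99/100 family and the miR-125 family, which lie beside let-7 genes at 3 loci in the human genome. Of 13 partner arms, 11 were listed and tested (the arms of miR-4763 were not in the table given here). All 5 tested 5p arms were called higher in circSOD2-sh, while of the 6 tested 3p arms 3 were called lower and 3 had no call, beside 65.7% of all tested miRNAs called. With library totals the 5p arms stayed higher, whereas no 3p arm was called lower: miR-100-3p, miR-99a-3p, miR-99b-3p and miR-125b-2-3p turned higher, and miR-125b-1-3p and miR-125a-3p lost their calls.

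On chromosome 11, miR-100-5p was at 18935, 18813, 19097 and 17920 normalized CPM in NC replicates 1 to 4 and at 132093, 124301, 138434 and 122705 in circSOD2-sh replicates 1 to 4. The log2 fold change was 2.79 (SE 0.065, edgeR adjusted p = 4.5e-10). miR-125b-5p, which has hairpins on chromosomes 11 and 21, was at 11.2, 9.85, 10.9 and 101 normalized CPM in NC replicates 1 to 4 and at 11511, 13878, 12868 and 12656 in circSOD2-sh replicates 1 to 4. Both were far above their NC range in every circSOD2-sh library, and NC replicate 4 held 9.47 times the miR-125b-5p of the other NC libraries. The log2 fold change of miR-125b-5p was 8.60 (SE 0.95, edgeR adjusted p = 2.27e-05), and 10.17 without NC replicate 4. Its 3p arms did not move with it: miR-125b-1-3p went from 1460 ± 12.6 to 674 ± 36.8 normalized CPM (SD, n = 4; log2 fold change -1.11, edgeR adjusted p = 2.48e-07) and miR-125b-2-3p from 320 ± 18.1 to 249 ± 7.14 (log2 fold change -0.36, edgeR adjusted p = 0.0026, and 0.61 with library totals). With library totals the call of miR-125b-1-3p was lost at -0.15 (edgeR adjusted p = 0.0838). In NC both 3p arms were thus more abundant than the 5p arm of the same hairpins, and in circSOD2-sh the 5p arm was more abundant than either.

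On chromosome 21, miR-99a-5p was at 2012, 1996, 2141 and 2473 normalized CPM in NC replicates 1 to 4 and at 6185, 8307, 6419 and 6031 in circSOD2-sh replicates 1 to 4, with a log2 fold change of 1.64 (SE 0.12, edgeR adjusted p = 9.36e-07). Its levels did not overlap between groups, and circSOD2-sh replicate 2 was its highest library, as for let-7c-5p. On chromosome 19, miR-99b-5p went from 6353 ± 109 to 11046 ± 745 normalized CPM (log2 fold change 0.80, SE 0.065, edgeR adjusted p = 2.15e-06). miR-125a-5p, from the same locus, went from 1721 ± 165 to 7315 ± 698 (log2 fold change 2.09, SE 0.098, edgeR adjusted p = 3.33e-08). let-7e-5p, whose hairpin lies between those of miR-99b and miR-125a, was called lower after TMM, as given above. The 3p arm miR-125a-3p was at 46.5 to 51.0 in NC and 18.9 to 30.2 in circSOD2-sh (log2 fold change -1.07, edgeR adjusted p = 0.000191), and with library totals that call was lost at -0.10 (edgeR adjusted p = 0.532).

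**Figure D4:**
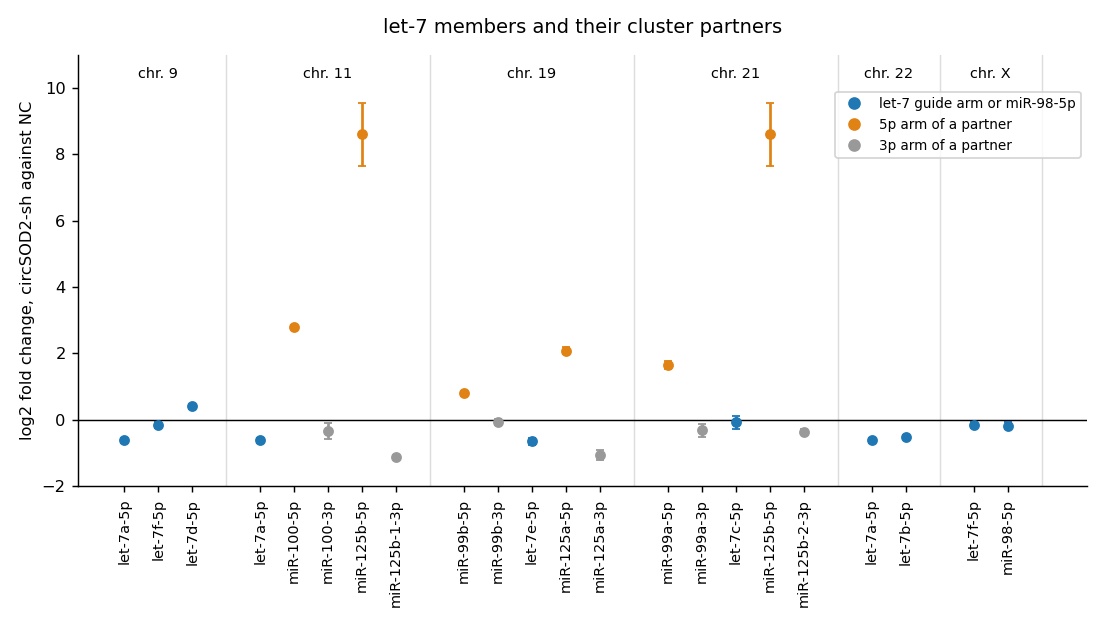
Log2 fold change (circSOD2-sh against NC, edgeR with TMM) with its SE for members (blue), 5p arms of partners (orange) and 3p arms of partners (grey), arranged by cluster, with miRNAs of several hairpins drawn in each of their clusters. The orange points lie between 0.80 and 8.60, the blue ones between -0.65 and 0.41, and the grey ones between -1.11 and -0.06.

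Ratios between a member and its partner within a library do not depend on the scaling, and 11 were tested by two-sided exact permutation over the 4 against 4 libraries, for which the smallest possible p is 0.0286. Of the 11, 9 did not overlap between groups and had that smallest p (0.0349 after Benjamini-Hochberg adjustment over the 11), beside 59.1% of the other tested miRNAs that did not overlap in their ratio to the summed members. The 11 ratios are not independent tests, since several share a miRNA such as let-7a-5p or miR-125b-5p. Against the miR-99/100 and miR-125 partners, every ratio was lower in all 4 circSOD2-sh libraries than in all 4 NC libraries. This largely restates the higher levels of those 5p arms given above. The log2 ratio of let-7a-5p to miR-100-5p was -1.01 ± 0.15 in NC and -4.42 ± 0.084 in circSOD2-sh (SD, n = 4), a difference of -3.41. For let-7e-5p the difference was -1.45 against miR-99b-5p and -2.74 against miR-125a-5p, and for let-7c-5p it was -1.74 against miR-99a-5p. Against miR-125b-5p the differences were -10.02 for let-7a-5p and -9.50 for let-7c-5p. Both ratios had a wide spread in NC because of NC replicate 4, and without single libraries they were -10.81 to -9.70 and -10.21 to -9.23.

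Within the let-7 hairpins of chromosome 9 the ratios also differed. The log2 ratio of let-7d-5p to let-7a-5p was -4.19 ± 0.13 in NC and -3.17 ± 0.039 in circSOD2-sh, a difference of 1.02. The ratio of let-7d-5p to let-7f-5p differed by 0.57 and that of let-7f-5p to let-7a-5p by 0.46, each without overlap. On the log2 scale the first of these ratios is the sum of the others, and they restate the shares given above. So the 3 mature miRNAs of that locus stood in different proportions in the 2 groups, although let-7a-5p and let-7f-5p also come from other loci. At 2 loci the ratios overlapped. The log2 ratio of miR-98-5p to let-7f-5p was -3.61, -3.60, -3.54 and -3.58 in NC and -3.62, -3.68, -3.59 and -3.53 in circSOD2-sh, a difference of -0.024 (exact permutation p = 0.514, 0.514 adjusted over the 11). The log2 ratio of let-7b-5p to let-7a-5p was -2.83 ± 0.089 in NC and -2.73 ± 0.18 in circSOD2-sh, a difference of 0.097 (exact permutation p = 0.429, 0.471 adjusted over the 11). For these pairs no difference was detectable with 4 libraries a group, which does not show that the ratios were equal.

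**Figure D5:**
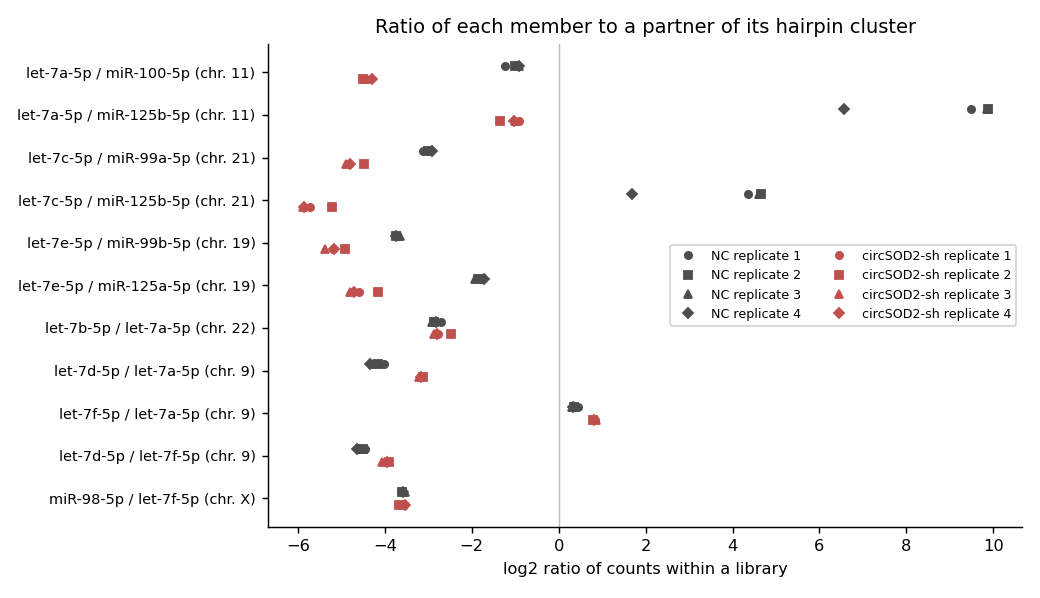
Log2 ratio of the counts of each member to a partner from the same cluster in each library, with NC in grey, circSOD2-sh in red and a marker shape for each replicate number. The groups are apart in 9 of the 11 ratios and overlap for let-7b-5p with let-7a-5p and for miR-98-5p with let-7f-5p, and NC replicate 4 lies to the left of the other NC libraries in both ratios to miR-125b-5p.

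The passenger arms of the same hairpins are mostly named by hairpin, so that let-7a-2 can be told from the other let-7a loci and let-7f-1 from let-7f-2. Of 12 arms, 11 were listed and tested, and 4 were called higher, 2 lower and 5 had no call. Of all tested miRNAs 65.7% were called, 33.3% higher and 32.4% lower, so the passenger arms were not called more often than the background. let-7a-2-3p, the passenger arm at the miR-100 locus, was at 9.2, 8.01, 9.38 and 9.21 normalized CPM in NC replicates 1 to 4 and at 45.0, 35.5, 44.9 and 36.5 in circSOD2-sh replicates 1 to 4 (log2 fold change 2.18, SE 0.15, edgeR adjusted p = 4.83e-07). let-7f-1-3p from chromosome 9 went from 22.1 ± 3.95 to 80.8 ± 7.47 (log2 fold change 1.87, edgeR adjusted p = 1.97e-06), while let-7f-2-3p from chromosome X went from 106 ± 4.81 to 86.9 ± 4.26 (log2 fold change -0.29, edgeR adjusted p = 0.0173, and 0.68 with library totals). The 2 passenger arms of let-7f thus differed in direction after TMM. let-7d-3p, the passenger arm of the member called higher, was at 183 to 199 in NC and 184 to 192 in circSOD2-sh and had no call (edgeR adjusted p = 0.61). let-7e-3p (log2 fold change 1.54, edgeR adjusted p = 7.89e-05) was also called higher but had at most 24 counts in any NC library, and the call of let-7c-3p (0.70, edgeR adjusted p = 0.0319) was lost when any 1 of 6 libraries was left out (NC replicates 1, 2 and 4 and circSOD2-sh replicates 1, 2 and 3).

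The known miRNAs with a mean of at least 100 normalized CPM whose pattern over the 8 libraries was most like that of the summed members were miR-26b-5p (Pearson r = 0.986), miR-92a-1-5p (0.964), miR-140-3p (0.964), miR-151a-5p (0.945) and miR-151b (0.944). These correlations describe 8 libraries that share the 2 groups and the same scaling, over 117 candidates, and carry no p. miR-26b-5p was at 2682 ± 168 normalized CPM in NC and 1705 ± 251 in circSOD2-sh. miR-151a-5p and miR-151b are near-identical in sequence and may share reads.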

How the data were processed

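Small RNA libraries of 786O cells (4 NC, 4 circSOD2-sh) were analysed from a deposited table of raw counts per miRNA, and a separate deposited table of CPM (counts scaled to a common library total), computed by the authors, served for 2 alternatives. Per the submitters' processing notes, FastQC 0.11.2, Trimmomatic 0.36, Bowtie 1.1.1 and GRCh38 were used. The counting tool, the miRNA annotation and the handling of mismatches are not given in the sources used here. The authors' columns of fold changes and p-values were not used. Totals were 3743860 to 9245044 counts, at which 3 counts equal 0.46 to 0.674 normalized CPM. Groups were taken from the labels. Counts were filtered with filterByExpr (minimum count 10), scaled by TMM and tested across all miRNAs with edgeR 4.0.16's quasi-likelihood test (R 4.3.3, no replicate block). Adjustment was by Benjamini-Hochberg over all 895 tested. Ratios had 0.5 added to each count and were tested by exact permutation (scipy 1.17.1). The rule for miRNAs named was all 9 members, their cluster partners and passenger arms, and the 5 known miRNAs most like the sum. The members and lists were chosen with earlier results of these data known. Alternatives were other scalings and filters, DESeq2 1.42.0, limma 3.58.1 on log2(CPM + 1) or log2(CPM + 0.1) of the deposited CPM, single libraries left out and, chosen after seeing the data, 7 other TMM references and values relative to the median. The edgeR fit was also run on simulated counts in which the most abundant miRNAs did not change. That run cannot check the choice of scaling, on which the sign of most members depends.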

Additional observations from a re-analysis of the deposited data

Results flagged for a closer look

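In 9 of 60 groups of 4 values 1 library lay far from the other 3 by Dixon's criterion, where chance gives about 1 in 20, or 3. Of these 9, 5 were in circSOD2-sh replicate 2. The groups are not independent, since members enter both as levels and as shares, so the 3 is only a rough guide. let-7c-5p and let-7e-5p were each flagged in both ways in circSOD2-sh replicate 2. let-7c-5p was at 372 normalized CPM there against 216 to 217 in the other 3, and let-7e-5p at 362 against 289 to 294. miR-99a-5p, the neighbour of let-7c, was at 8307 in that library against 6031 to 6419. As shares of the summed members, let-7c-5p was at 1.27% there against 0.587 to 0.622%, and let-7e-5p at 1.23% against 0.793 to 0.831%. The same library had summed neural markers of 5238 normalized CPM against 476 to 494, and their part in these values was not tested.

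NC replicate 4 held miR-125b-5p at 101 normalized CPM, whereas NC replicates 1 to 3 held 9.85 to 11.2, and there let-7c-5p held 0.742% of the summed members against 0.568 to 0.586%. Summed stromal markers were 556 in that library against 7.24 to 8.53, and their part was not tested. let-7e-5p held 1.19% of the sum in NC replicate 1 against 1.091 to 1.105%, and miR-98-5p held 2.37% in NC replicate 3 against 2.25 to 2.27%.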

How the results depend on the processing

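Direction depended on the scaling for most members. The log2 fold changes of let-7a-5p, let-7b-5p, let-7c-5p, let-7e-5p, let-7f-5p, let-7g-5p, let-7i-5p and miR-98-5p, all below 0 after TMM, were in that order 0.35, 0.45, 0.89, 0.32, 0.81, 0.68, 0.55 and 0.79 with library totals and 0.23, 0.32, 0.76, 0.19, 0.69, 0.57, 0.43 and 0.67 with upper quartile scaling. With limma on the deposited CPM they were 0.21, 0.30, 0.72, 0.17, 0.67, 0.52, 0.39 and 0.64 with 1 added, and the same with 0.1 added except for let-7b-5p at 0.31. The number of members called lower was 0 under each of these 4 choices, and the number called higher was 9, 7, 7 and 7. The arms miR-100-3p, miR-125b-2-3p, miR-99a-3p, miR-99b-3p, let-7b-3p, let-7d-3p and let-7f-2-3p turned likewise, to 0.64, 0.61, 0.65, 0.91, 0.87, 0.92 and 0.68 with library totals, 0.50, 0.48, 0.52, 0.78, 0.75, 0.80 and 0.56 with the upper quartile, 0.38, 0.46, 0.41, 0.75, 0.69, 0.77 and 0.53 with limma and 1 added, and 0.44, 0.46, 0.49, 0.77, 0.71, 0.78 and 0.53 with 0.1 added. let-7g-3p was 0.069 with library totals, and let-7d-3p was 0.0024 when known miRNAs alone were fitted. The log2 difference of the summed members was -0.35 after TMM and 0.62, 0.50 and 0.48 with library totals, the upper quartile and the deposited CPM. These scalings moved the median of all tested miRNAs to 0.72 to 0.96, and higher calls from 50.7% of all calls to 77.2 to 79.5%. Relative to that median, let-7c-5p, let-7f-5p and miR-98-5p were below 0 in 25, 27 and 27 of 28 settings.

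Calls near the threshold also moved. let-7f-5p was called lower at -0.24, -0.29 and -0.22 with NC replicate 1, circSOD2-sh replicate 2 and circSOD2-sh replicate 3 as TMM reference. let-7g-5p was called lower at -0.32 without the low-count filter, -0.34 with DESeq2, and -0.37, -0.38, -0.32, -0.42 and -0.35 with NC replicates 1 and 4 and circSOD2-sh replicates 1, 2 and 3 as reference. miR-98-5p was called at -0.31 with circSOD2-sh replicate 2 as reference, under which 7 members were lower. Without both NC replicate 4 and circSOD2-sh replicate 2, 7 members were called lower, with let-7c-5p at -0.31, let-7f-5p at -0.20 and let-7g-5p at -0.26, and let-7i-3p and miR-98-3p were -0.029 and -0.098. Over single libraries left out, log2 fold changes ran from -0.41 to -0.0073 for let-7c-5p, 0.25 to 0.38 for let-7d-5p, -0.35 to -0.17 for let-7f-5p, -0.51 to -0.28 for let-7g-5p, -0.37 to -0.18 for miR-98-5p, -0.19 to 0.14 for let-7a-3p, -0.028 to 0.090 for let-7i-3p and -0.14 to 0.077 for miR-98-3p, and 4 to 8 members were called lower and 0 to 1 higher. Over the same fits 537 to 661 of all tested miRNAs were called, and the median of all tested ran from -0.145 to 0.067. The causes were not tested. Of all tested miRNAs, 588 were called with all settings as reported, 246 when known miRNAs alone were fitted and 361 with a mean of at least 50 counts, in both of which fewer were tested.

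Same-numbered libraries had correlations of deviations of 0.26, -0.099, 0.096 and -0.17. NC replicates 1 and 3 correlated best with the circSOD2-sh library of the same number, and NC replicates 2 and 4 with another. These weak values cannot settle whether the replicate numbers pair the libraries. With the number as a replicate block, 574 miRNAs were called, and members lower (4) and higher (1) were as many, with let-7a-5p at -0.62 and let-7d-5p at 0.41. Depth limited the scarcest arms, while every member had at least 1078 counts in each library.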
